A study of Mus musculus with 6 samples.

Results

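The transcripts described here encode factors that remove the 5′ cap of mRNA and degrade what follows, or that carry out nonsense-mediated decay. The list of 10 Ensembl gene IDs was drawn up by gene function, with earlier results of these data known, and all 10 were found among the 54446 gene IDs of the files. Each passed the filter on low counts, so the 10 members stand among 15615 genes tested. The files pair no ID with a symbol, and the RefSeq gene table at hand has an Ensembl ID in 0 of 49997 entries, so the symbols are those of the list. For 9 members they are Dcp1a (ENSMUSG00000021962), Dcp2 (ENSMUSG00000024472), Edc3 (ENSMUSG00000038957), Edc4 (ENSMUSG00000036270), Ddx6 (ENSMUSG00000032097), Patl1 (ENSMUSG00000046139), Xrn1 (ENSMUSG00000032410), Upf1 (ENSMUSG00000058301) and Smg1 (ENSMUSG00000030655). The list gives the other one, ENSMUSG00000066440, as Lsm14a. That pairing is in doubt and could not be checked here, so this member is reported by its ID, with no role.

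The series measured which RNAs come down with YTHDF2 in regulatory T (Treg) cells of mouse tumours. Wild-type mice with a Foxp3-GFP reporter carried tumours of B16F10, a mouse melanoma line, and CD45+ CD4+ GFP+ cells were sorted from them. The 3 libraries of the YTHDF2 immunoprecipitation (IP) came from lysate held for 4 hours on beads with an anti-YTHDF2 antibody and washed 6 times, and the 3 Input libraries from 10% of the lysate set aside beforehand. Both groups share genotype, tumour and sort, a control antibody or cells without YTHDF2 were not used here, and it is not stated whether replicates are separate animals, so p-values measure the spread between libraries only. The age and sex of the mice were not used here. Treg markers and markers of other cells could not be looked up without symbols, so the labelled cell type was not checked.

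YTHDF2 reads N6-methyladenosine, a methyl mark within mRNA, and shortens the life of the transcripts it binds, in part by bringing in the CCR4-NOT deadenylase. After deadenylation, the decapping enzyme Dcp2 cuts the 5′ cap with the help of Dcp1a, Edc3 and Edc4, the proteins Ddx6 and Patl1 promote that step, and Xrn1 digests the uncapped RNA from its 5′ end. In nonsense-mediated decay the kinase Smg1 phosphorylates the helicase Upf1 on transcripts whose translation ends too early, and these then enter the same decay steps. The comparison of IP with Input asks whether the mRNAs for this machinery are themselves recovered with YTHDF2.

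None of the 9 members with a symbol passed the test of IP against Input, and ENSMUSG00000066440 did, with 3.12 times the Input level in the IP. Among the 9, the estimates ran from a log2 fold change of -0.43 for Edc3 to 0.74 for Xrn1. Xrn1 and Smg1 had the highest estimates among the members with a symbol, and Edc3, Ddx6 and Dcp2 the lowest. In edgeR's quasi-likelihood test, with p adjusted by the Benjamini-Hochberg method over all genes tested and a threshold of 0.05, 1 of 10 members was enriched and 0 were depleted. Over all tested genes, 4.33% were enriched and 6.11% depleted. Among the 5550 tested genes within the members' range of mean level, 27.3 to 723 CPM (read counts scaled to a common library size), 10.4% were enriched and 13.8% depleted. At an unadjusted p under 0.05, 3 of the 9 passed, namely Ddx6, Xrn1 and Smg1, while 24% of all tested genes and 44.4% of those in the members' range of level did. DESeq2 called 3.32% of 40072 genes enriched and 4.99% depleted. These are all genes with any read, and a gene without an adjusted p counts as not called. The DESeq2 shares are thus not directly comparable with those over the 15615 filtered genes. Limma voom called 5.62% and 11% of the 15615. Both also called 0 of the 9. At these shares, 0 of 9 does not set the members apart. In some other settings the count was not 0: of 15 alternatives, Smg1 was enriched in 6, Xrn1 was enriched in 1 and Ddx6 depleted in 1.

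Gene-assigned reads numbered 6847731 to 8465453 per IP library and 10029733 to 14704617 per Input library, and the members held 143 to 9368 reads in an IP library and 201 to 9790 in an Input library. The spread between IP libraries was larger than counting alone gives for 9 of 10 members, all but Patl1. For Xrn1 the coefficient of variation over the IP libraries was 42.0%, where counting error at its depth is 2.46%. The coefficient of variation was larger in the IP than in the Input for 7 of 10 members. IP replicate 3, which had reads for the fewest gene IDs (14200, against 18501 and 19991 in the other IP libraries), gave the lowest IP value for 5 members and the highest for 2. The part of this library in the results below was not tested beyond the values given without it.

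**Figure D1:**
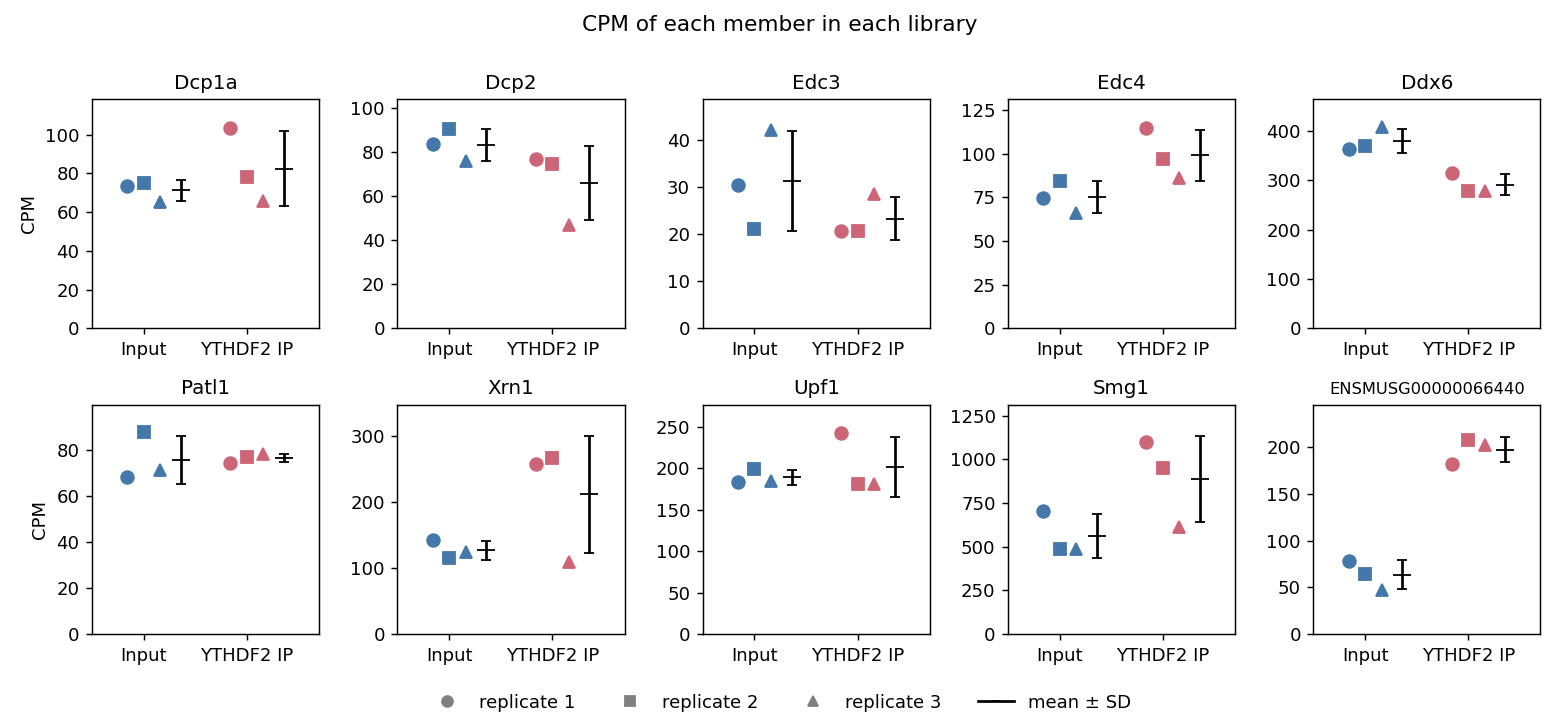
Level of each of the 10 members in CPM (TMM-scaled) on the vertical axis of each panel, with the Input libraries in blue and the YTHDF2 IP libraries in red. Symbols mark the replicate number and the black bars give the mean ± SD of the 3 libraries. For Xrn1, IP replicate 3 lies at 109 CPM, below all Input libraries, while the other IP libraries lie at 258 and 268. For ENSMUSG00000066440 all IP libraries lie above all Input libraries.

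The decapping enzyme and its cofactors gave 4 members, none of which passed the test. Their median log2 fold change was -0.06, with 2 estimates above 0 and 2 below. Dcp2, the catalytic subunit, had 77.2, 74.8 and 46.9 CPM in IP replicates 1, 2 and 3, and 83.6, 90.6 and 76.1 CPM in the Input replicates. The groups overlapped by a narrow margin, since IP replicate 1 lay just above Input replicate 3, and IP replicate 3 was well below every other library. Its log2 fold change was -0.33 ± 0.27 (SE), with a 95% interval of -0.94 to 0.27 and an adjusted p of 0.554.

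Dcp1a, the activating partner of Dcp2, had 103, 78.0 and 65.7 CPM in the IP and 73.7, 74.9 and 65.1 CPM in the Input. IP replicate 1 was the highest library, and IP replicate 3 lay within the range of the Input. Its estimate was a log2 fold change of 0.21 ± 0.25 (SE) at an adjusted p of 0.728, and without IP replicate 1 it was -0.03. A ratio of both genes within a library does not depend on how libraries are scaled. The ratio of Dcp1a reads to Dcp2 reads was 1.34, 1.04 and 1.40 in the IP libraries and 0.881, 0.827 and 0.855 in the Input libraries. It was thus higher in the IP libraries without overlap, by 1.46-fold on average, although neither gene alone separated the groups. Of all pairs of tested genes in the members' range of level, 51.6% separated the groups in this way. An exact permutation test (two-sided) of this ratio gave p = 0.1, the smallest possible for 3 against 3 libraries, and 0.237 after adjustment over the 45 pairs of members.

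Edc4, the scaffold that holds Dcp1a and Dcp2 together, had 115, 96.8 and 85.9 CPM in the IP and 74.5, 84.6 and 66.1 CPM in the Input. Every IP library was above every Input library, the closest being IP replicate 3 and Input replicate 2. The estimate was 0.40 ± 0.23 (SE), or 1.32-fold with a 95% interval of 0.921 to 1.89, and the adjusted p was 0.355. Edc3, an enhancer of decapping, held the fewest reads of the members. It had 20.6, 20.8 and 28.6 CPM in the IP and 30.5, 21.2 and 42.3 CPM in the Input, so that the Input range enclosed IP replicate 3 and the other IP libraries lay just below it. Its estimate of -0.43 ± 0.44 (SE) had the widest interval of the members, -1.41 to 0.56, and an adjusted p of 0.668.

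Ddx6 and Patl1 promote decapping and are core proteins of P bodies, the cytoplasmic granules in which repressed mRNA gathers. Ddx6, an RNA helicase, had 316, 278 and 279 CPM in the IP and 363, 370 and 408 CPM in the Input. All IP libraries lay below all Input libraries, and the replicates of each group were close together, with coefficients of variation of 7.36% and 6.31%. The Input level was 1.31 times that of the IP, a log2 fold change of -0.38 ± 0.14 (SE) with a 95% interval of -0.71 to -0.06. The unadjusted p was 0.0250 and the adjusted p 0.131, which misses the threshold. With library sizes that include reads outside genes, the log2 fold change was -0.91 with an adjusted p of 0.00273. That scaling moved the median of all genes by -0.53 and called 11.7% of them depleted, and the value for Ddx6 moved by about as much.

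Patl1, which bridges Ddx6 and the decapping enzyme, had 74.5, 76.9 and 78.1 CPM in the IP and 68.1, 87.7 and 71.4 CPM in the Input. All IP values lay inside the range of the Input. The log2 fold change of 0.02 ± 0.23 (SE) was the closest to 0 of the 10, with a 95% interval of -0.50 to 0.53 and an adjusted p of 0.985. Counted over all members, 2 had every IP library above every Input library (Edc4 and ENSMUSG00000066440) and 1 had every IP library below (Ddx6). The same held for 12.8% and 23.7% of all tested genes.

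Xrn1, the 5′ to 3′ exonuclease that acts after decapping, had 258, 268 and 109 CPM in the IP and 143, 115 and 124 CPM in the Input. Replicates 1 and 2 of the IP were above all other libraries, and IP replicate 3 was below all of them. The log2 fold change was 0.74 ± 0.31 (SE), or 1.67-fold with a 95% interval of 1.02 to 2.71. Its unadjusted p was 0.0425 and its adjusted p 0.187. Without IP replicate 3 the log2 fold change was 1.01 with an adjusted p of 0.00405, and without IP replicate 1 or 2 it was 0.52 or 0.50 with adjusted p-values of 0.415 and 0.431. The value for Xrn1 therefore rests on which IP libraries are used. Within libraries, the ratio of Xrn1 reads to Dcp2 reads was 3.35, 3.58 and 2.33 in the IP against 1.71, 1.27 and 1.63 in the Input. This ratio was higher in all IP libraries by 1.99-fold on average (exact two-sided permutation p = 0.1, adjusted 0.237 over the 45 pairs), and Dcp2 was itself low in IP replicate 3. It was the 1 ratio of Xrn1 to the 8 other members with a symbol that separated the groups, against 51.6% of pairs of genes of that level.

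Smg1 and Upf1, the members of nonsense-mediated decay, had estimates of 0.66 and 0.09. Smg1, the kinase, had 1097, 950 and 613 CPM in the IP and 706, 485 and 489 CPM in the Input. It was highest in IP replicates 1 and 2, while IP replicate 3 lay between Input replicates 1 and 3. The log2 fold change was 0.66 ± 0.23 (SE), or 1.58-fold with a 95% interval of 1.10 to 2.28, with an unadjusted p of 0.0181 and an adjusted p of 0.105. Smg1 was near the threshold: it passed in 6 of 15 alternative settings, with adjusted p-values from 0.00492 with a replicate block to 0.808 with library sizes from all reads. Without IP replicate 3 its adjusted p was 0.0175 and its log2 fold change 0.84, and without IP replicate 1 the log2 fold change was 0.43 with an adjusted p of 0.328. Without Input replicate 2 or 3, the log2 fold change was 0.48 in each case.

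Upf1, the helicase that Smg1 phosphorylates, had 243, 181 and 181 CPM in the IP and 184, 199 and 184 CPM in the Input. Only IP replicate 1 was above the Input range, and both other IP libraries were slightly below it. The log2 fold change was 0.09 ± 0.18 (SE), with a 95% interval of -0.31 to 0.50 and an adjusted p of 0.847. The ratio of Smg1 reads to Upf1 reads was 4.52, 5.26 and 3.39 in the IP and 3.84, 2.43 and 2.65 in the Input. These ranges overlapped (exact two-sided permutation p = 0.2, adjusted 0.321 over the 45 pairs), and a test of 3 against 3 libraries, whose smallest p is 0.1, could not have passed 0.05.

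**Figure D2:**
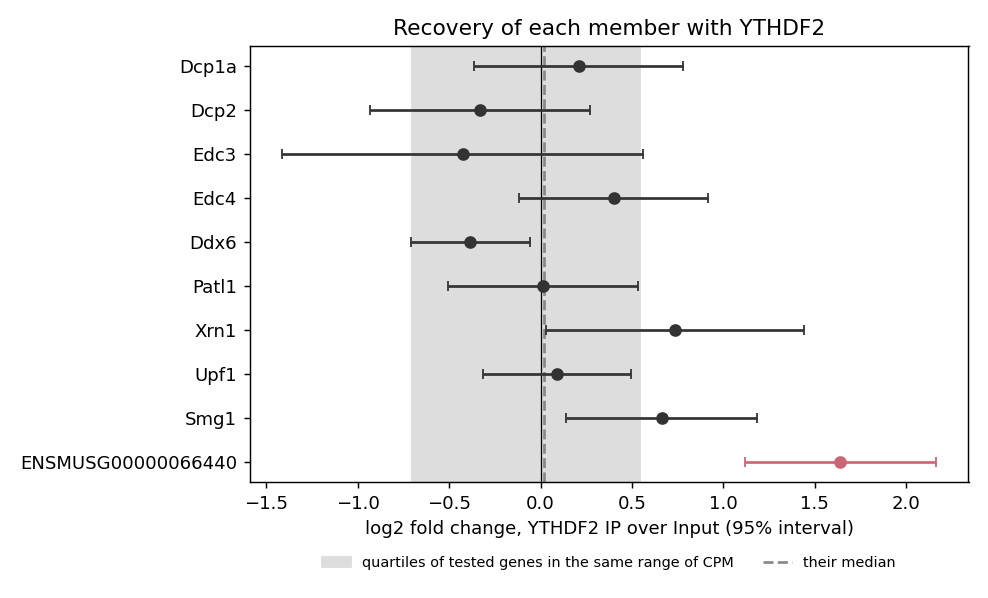
Log2 fold change of YTHDF2 IP over Input for each member on the horizontal axis, with its 95% interval; red marks an adjusted p under 0.05 in edgeR's quasi-likelihood test. The grey band spans the quartiles, -0.70 to 0.55, of the 5550 tested genes in the same range of mean CPM, and 7 of the 10 members have their estimate inside it.

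ENSMUSG00000066440 had 182, 207 and 202 CPM in the IP and 78.1, 64.7 and 47.0 CPM in the Input. The lowest IP library stood well above the highest Input library, and the IP replicates had a coefficient of variation of 6.67%. Its log2 fold change was 1.64 ± 0.23 (SE), or 3.12-fold with a 95% interval of 2.17 to 4.48, and its adjusted p was 0.00219 in edgeR's test. The call held in all 15 alternative settings run for it, with log2 fold changes of 1.11 to 1.84 and adjusted p-values of 5.80e-08 to 0.0154. Of the tested genes in the members' range of level, 98.2% had a lower log2 fold change. Its read ratio to each of the other 9 members separated the groups without overlap, with the IP higher. Of all pairs of tested genes in the members' range of level, 51.6% separated the groups, in either direction. The 9 ratios share this gene, so they are not independent of its own change. The count of enriched members is therefore 1 with this ID and 0 without it.

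**Figure D3:**
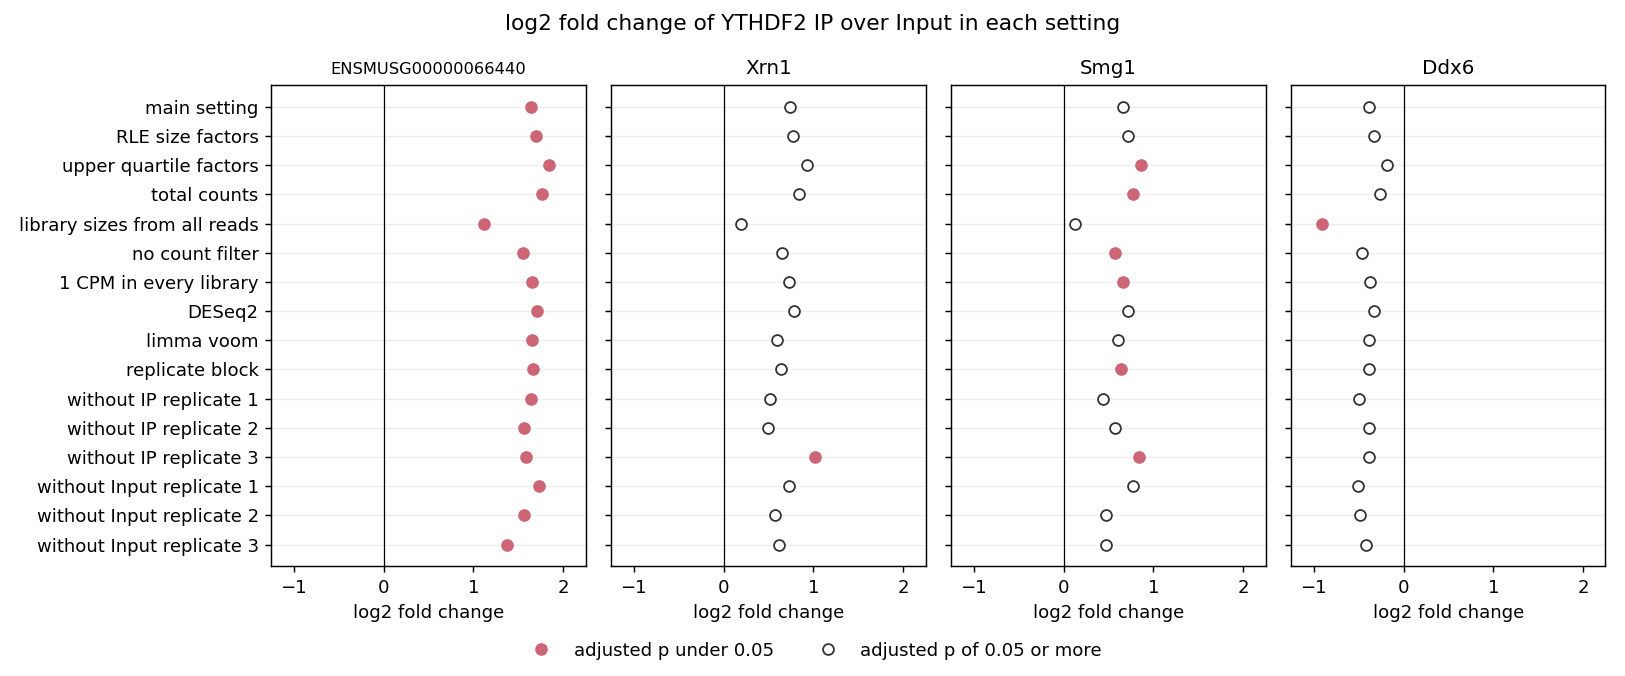
Log2 fold change of YTHDF2 IP over Input on the horizontal axis for ENSMUSG00000066440, Xrn1, Smg1 and Ddx6, in the main setting and each of 15 alternatives listed on the vertical axis. Filled red points have an adjusted p under 0.05 in the test of that setting; ENSMUSG00000066440 is filled throughout, Smg1 in 6 alternatives, and Xrn1 and Ddx6 in 1 each.

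As a set, the 10 members had a median log2 fold change of 0.15, and 0.09 without ENSMUSG00000066440. The median was -0.12 over all tested genes and 0.02 over those in the same range of level. Estimates were above 0 for 7 of 10 members, where 50.7% of the genes in that range had one above 0. The signs of Dcp1a, Edc4, Patl1 and Upf1 are relative to the scaling: with library sizes from all reads their log2 fold changes were -0.32, -0.13, -0.51 and -0.44, each still above the median of all genes in that setting, -0.65. The reads of the 9 members with a symbol, summed, came to 2324, 2037 and 1614 CPM (of gene-assigned reads, with no TMM scaling) in the IP libraries and 1628, 1444 and 1460 in the Input libraries. Smg1 alone held 36.3% to 44.1% of the reads of all 10 members in the IP libraries and 30.4% to 39.1% in the Input libraries, so the sum in large part follows Smg1. The groups overlapped in this sum, because IP replicate 3 fell just under Input replicate 1.

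The intervals show what the test leaves possible under TMM scaling. For 6 of the 9 members with a symbol, the 95% interval lay within a 2-fold change in either direction: Dcp1a, Dcp2, Edc4, Ddx6, Patl1 and Upf1. For Xrn1 and Smg1 it included a 2-fold enrichment, and for Edc3 a 2-fold depletion. Other scalings moved the estimates, and no intervals are given for them here. With library sizes from all reads, Dcp2 was at -0.86 and Ddx6 at -0.91. With upper quartile factors, Edc4 was at 0.59. The members could also be compared with each other within libraries. Of the 36 pairs among the 9, 10 had a read ratio that separated all IP from all Input libraries, and of the 45 pairs with ENSMUSG00000066440 included, 19 did, while 51.6% of all pairs of tested genes in the members' range of level did. Pairs that share a gene are not independent, so these counts carry no test. Ddx6 took part in 4 of the 10 separating pairs, as the lower member in each, with Smg1, Edc4, Dcp1a and Upf1. Dcp2 was the lower member of 4 further pairs, with Smg1, Xrn1, Edc4 and Dcp1a.

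The genes of the 9 members with a symbol are protein-coding genes in the RefSeq annotation of GRCm38.p6, the assembly behind the submitters' build mm10. Smg1 spans chr7:118131308-118244437 and Xrn1 chr9:95954750-96057806, the longest spans of the list at 113130 and 103057 bases, introns included. Dcp2 spans chr18:44380500-44424969. Ddx6 spans chr9:44602983-44640731 and Edc3 chr9:57708540-57750163, and Dcp1a spans chr14:30479486-30527056. Upf1 spans chr8:70331493-70353423, Edc4 chr8:105880873-105893225 and Patl1 chr19:11912399-11945096. The span of Dcp1a overlaps that of Cacna1d, a calcium channel gene on the opposite strand, by 11671 bases, and that of Xrn1 overlaps the opposite-strand lncRNA Gm16794 by 8498 bases. The library kit keeps strand, but how the counting treated it is not stated in the labels. Smg1 overlaps the lncRNA Gm40454 by 1407 bases, the opposite-strand lncRNA 4930583K01Rik by 531 and the snoRNA Gm25683 by 131. Ddx6, Upf1 and Patl1 have overlaps of 9 to 337 bases each. All these overlaps are of whole spans, introns included, and whether they affected the counts of the members was not tested. The lncRNA Gm35566 overlaps Dcp1a by 3998 bases on the same strand, where a strand setting would not separate them. Exons and transcript lengths were not used here, so read numbers compared between members, such as the share of Smg1, are not corrected for length.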

How the data were processed

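Per the submitters' processing notes, build mm10 was used with HISAT2 2.1.0, Trimmomatic 0.39, DESeq2 and HTSeq, whose roles the notes leave out; annotation release and strand setting: not given in the sources used here. Deposited values are raw read counts per gene ID, 1 file per library. HTSeq's summary categories and the 92 spike-in IDs, with 0 to 2 reads per library, were left out; reads in no feature made up 71.7% ± 0.434 (SD, n = 3) of an IP file and 50.4% ± 1.08 (SD, n = 3) of an Input file.

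All genes were fitted together with edgeR 4.0.16 under R 4.3.3: genes filtered by filterByExpr, TMM scaling, and a robust, two-sided quasi-likelihood F-test with group as its single term. The method was tested on simulated data. CPM values use TMM-scaled library sizes, and standard errors and intervals come from the F statistic. Alternatives used limma 3.58.1, DESeq2 1.42.0, other scalings, filters and libraries left out. All 10 members are named; they and all lists were chosen with earlier results of these data known. Comparing reads of member pairs within libraries was chosen after the data were seen. Lists of other decapping, nonsense-mediated decay and 3′ to 5′ decay genes and of cell type markers could not be matched to IDs, and transcript features need sequences; neither was analysed here.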

Additional observations from a re-analysis of the deposited data

Results flagged for a closer look

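Reads in no annotated feature lie outside the gene counts used for the members. Their mean share was 71.7% in the IP files and 50.4% in the Input files. Their sequences were not analysed here.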

How the results depend on the processing

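Over the 10 members and 15 alternatives, 128 values kept their direction and side of the threshold, 8 came to pass it and 14 changed sign; no sign change concerned ENSMUSG00000066440, Smg1, Xrn1, Ddx6, Dcp2 or Edc3. The number of members enriched was 2 in place of 1, with Smg1 added, with upper quartile factors, total counts, no count filter, 1 CPM in every library or a replicate block; in the same order, 6.92%, 6.01%, 1.82%, 11.5% and 5.33% of all genes were enriched there. It was 1 to 3 when 1 library was left out (3 without IP replicate 3, with Smg1 and Xrn1 added and 5.25% of all genes enriched) and 0 without ENSMUSG00000066440. With library sizes from all reads, 1 member, Ddx6, was depleted, beside 11.7% of all genes, the median of the members was -0.38, beside -0.65 for all genes, and Dcp1a, Edc4, Patl1 and Upf1 had log2 fold changes of -0.32, -0.13, -0.51 and -0.44. That scaling moved the log2 fold change of genes tested in both settings by a median of -0.53. The same shift was 0.20 with upper quartile factors, 0.11 with total counts, and -0.145 with the block and with limma voom. The median of all genes was -0.50 with the block and -0.57 with limma voom, against -0.12 in the main setting. Patl1 was at -0.062 with no count filter. Leaving out 1 library gave a median of the members of -0.023 (without IP replicate 1) to 0.22, and log2 fold changes of -0.034 to 0.32 for Dcp1a, -0.14 to 0.049 for Patl1 and -0.11 to 0.13 for Upf1. What caused these shifts was not tested. Gene-assigned reads made up 24.8% of an IP file and 38.9% of an Input file on average, and leaving out a library also left a smaller group.

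With the replicate number as a block, Smg1 had a log2 fold change of 0.65 and an adjusted p of 0.00492, and no other member changed its call. The labels do not say that equal numbers share a lysate, and deviations of same-numbered libraries from their group means correlated at 0.0999, 0.0260 and 0.0242, so equal numbers were not treated as pairs. Every library correlated best with its own number, and low correlations do not exclude pairing. The call of Smg1 depends on this choice: without the block its adjusted p in edgeR's test was 0.105.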
